A study of Zea mays with 12 samples.

Results

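The maize (Zea mays) gene arf1 encodes a homolog of ADP-ribosylation factor, a GTP-binding protein that controls how membrane vesicles form, and is described here across 12 RNA-seq libraries of seed embryos. It was found by its symbol in a deposited table of 99 genes, of which it is 1. It was among the 76 genes that passed a filter on low values, at least 1 FPKM in at least 3 libraries. FPKM is a fragment number corrected for the length of the gene and the size of the library. The symbols of these 76 genes all begin with a or A. Ranks, shares, likeness and adjusted p-values below refer to the genes of this table, not to all genes of the embryo. The gene was chosen because its level was lower at 10 °C in these same libraries, so its values at both temperatures are given as a description, without a test. The embryos came from 2 inbred lines, B73, labelled as resistant to low temperature, and Mo17, labelled as sensitive. Seeds of each line took up water in germination paper for 2 h at 25 °C, the control condition, or at 10 °C, and each line and temperature gave 3 libraries labelled as biological replicates. The 4 groups thus differ in line and temperature alone as far as the labels go, and all share the tissue and the time of sampling. Each degree of tolerance is represented by 1 line. How many embryos went into a library is not stated in the labels. The submitters' processing notes name a B73 genome build for both lines.

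ADP-ribosylation factors switch between a GDP-bound form in the cytosol and a GTP-bound form on membranes, where they recruit the coat proteins that shape transport vesicles. Guanine nucleotide exchange factors turn them on, and GTPase-activating proteins turn them off. In plants they act at the Golgi apparatus and in traffic between the Golgi, the endoplasmic reticulum, endosomes and the plasma membrane. When a dry seed takes up water, its embryo resumes respiration and draws on stored and newly made transcripts, and its membranes must return to an ordered state, a step known to be sensitive to chilling in maize.

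In the coordinates of B73 RefGen_v4, the deposited table places arf1 on chromosome 5, from 3149220 to 3151838 on the minus strand, a span of 2619 bases. The chromosome number was assigned by matching the transcript to the RefSeq gene table of a later B73 assembly, in which the gene has the same span. The table annotates arf1 to GTP binding, signalling by small GTPases, activation of phospholipase, the Golgi apparatus, the cytosol and the endocytosis pathway. None of the other genes of the table carries the terms for GTP binding or small GTPase signalling, and 1 other gene, ap17, carries the endocytosis pathway. ADP-ribosylation factors of plants form a family of very similar genes, and the authors' counting could have divided reads among copies, which was not tested.

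The libraries differed little in depth. Relative depth, taken from how count and FPKM relate in each library, ran from 0.820 in replicate 1 of B73 at 25 °C to 1.08 in replicate 2 of B73 at 10 °C, and absolute depth is unknown. Libraries of the same group correlated over the tested genes at a Pearson r of 0.969 to 0.997 on log2(FPKM + 1). The lowest value belonged to replicate 1 of B73 at 10 °C, which stood apart from both other libraries of its group. The main estimates of change and line difference of arf1 that use this group are also given without that library. Its group mean, spread, ratio and ranks are given with it only. Of 5 embryo markers looked up, 1 was in the table used here, Agpsemzm, a small subunit of ADP-glucose pyrophosphorylase, at 92.9 to 149 FPKM. Of 5 endosperm markers, looked up by exact symbol, 1 was in the table, ae1, which was listed at 0 in all libraries. A further entry, ae1_1, described as a 1,4-alpha-glucan-branching enzyme, was expressed and tested. It was higher in Mo17 over both temperatures, at a log2 difference of 2.81 ± 0.21 (SE; edgeR, adjusted p = 3.67e-07). The 0 of ae1 therefore does not show that endosperm transcripts were absent. The other markers, with both aleurone markers, were not analysed here, so the markers looked up covered Agpsemzm and ae1 alone.

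arf1 was a well expressed gene in every library. In B73 at 25 °C the 3 libraries stood at 71.9, 67.3 and 64.2 FPKM. In B73 at 10 °C they stood at 46.3, 57.1 and 50.5 FPKM. Every B73 library at 10 °C was below every B73 library at 25 °C, with a gap of 7.14 FPKM between the nearest libraries. In Mo17 at 25 °C the libraries stood at 64.9, 86.0 and 97.1 FPKM. In Mo17 at 10 °C they stood at 46.4, 52.4 and 50.6 FPKM. The Mo17 libraries of both temperatures did not overlap either, with a gap of 12.4 FPKM. Among the Mo17 libraries at 25 °C, replicate 1 lay within the range of B73 at 25 °C, and the other two lay above every B73 library. By FPKM, a level per gene length, arf1 ranked between 17 and 21 of the 99 genes in the 6 libraries at 25 °C and between 21 and 27 in the 6 libraries at 10 °C.

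**Figure D1:**
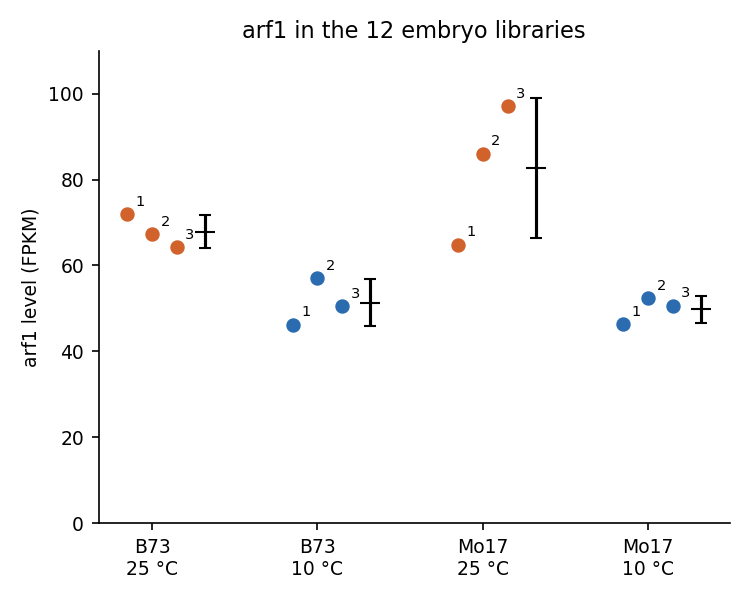
Level of arf1 in FPKM (vertical axis, from 0) in each of 12 embryo libraries, grouped by line and temperature. Numbers beside the points are replicate numbers, and the black bars give the mean ± SD of 3 libraries. All libraries at 10 °C lie between 46.3 and 57.1 FPKM and all libraries at 25 °C between 64.2 and 97.1 FPKM.

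The order of the group means was Mo17 at 25 °C, B73 at 25 °C, B73 at 10 °C and Mo17 at 10 °C. The means were 82.7 ± 16.4, 67.8 ± 3.87, 51.3 ± 5.47 and 49.8 ± 3.10 FPKM (mean ± SD, n = 3 each). The first and second groups of this order overlapped, as did the third and the fourth, while the second and the third did not. The spread was uneven. The coefficient of variation of arf1 was 19.8% in Mo17 at 25 °C, where the median of the tested genes was 11.1%, and 56 of the 76 genes varied less. In the other groups arf1 varied less than the median gene, at 5.70% in B73 at 25 °C (median 10.8%), 10.7% in B73 at 10 °C (median 14.7%) and 6.23% in Mo17 at 10 °C (median 10.7%).

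The mean FPKM of arf1 at 10 °C was 0.756 times that at 25 °C in B73 and 0.603 times that at 25 °C in Mo17. In normalized counts, which are counts divided by relative depth, arf1 went from 10215 ± 581 to 7726 ± 823 in B73 and from 12451 ± 2466 to 7503 ± 468 in Mo17 (mean ± SD, n = 3 each). In a bulk sample, fewer cells of a type and less RNA per cell cannot be told apart. In the edgeR model of the 12 libraries the log2 change at 10 °C was -0.40 ± 0.13 in B73, -0.73 ± 0.14 in Mo17 and -0.57 ± 0.10 on average (± SE). Without replicate 1 of B73 at 10 °C, the library that stood apart, the change in B73 was -0.33 ± 0.15 and the average change -0.53 ± 0.10 (± SE). Across all tested genes the median log2 change was -0.05 in B73 and -0.02 in Mo17.

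By the same measure 9 of 76 genes (11.8%) had every B73 library at 10 °C below every B73 library at 25 °C, and 15 (19.7%) did so in Mo17. In both lines at once this was so for 4 genes (5.26%), namely adh1, aprl6, AI812156 and arf1. Of these, aprl6 had low levels in B73, at 0.93 to 2.09 FPKM. For arf1 alone (1 of 76 genes, 1.32%), the highest of the 6 libraries at 10 °C was below the lowest of the 6 at 25 °C whatever the line. Without replicate 1 of B73 at 10 °C, 15 genes were separated in B73, 5 in both lines and 2 whatever the line, arf1 among them in each case. Since low values at 10 °C chose arf1, these counts describe the gene and support nothing. Of the changes in the tested genes ordered from the most negative, that of arf1 ranked 7 in B73 and 6 in Mo17.

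**Figure D2:**
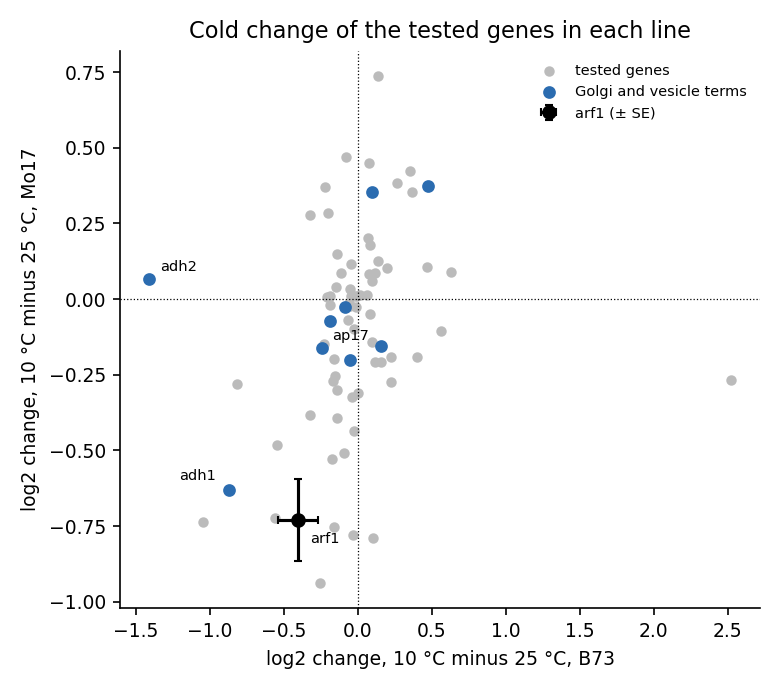
Log2 change from 25 °C to 10 °C in B73 (horizontal axis) and in Mo17 (vertical axis) for the 76 tested genes, each a point. Black marks arf1 with its SE (-0.40 ± 0.13 and -0.73 ± 0.14), and blue marks 9 other genes annotated to the Golgi apparatus or to vesicles, of which ap17, adh1 and adh2 are named. arf1 lies below 0 on both axes, and most blue points lie nearer to 0.

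Whether the line altered the level of arf1 was a comparison that played no part in choosing the gene. Averaged over both temperatures, the log2 difference between Mo17 and B73 was 0.12 ± 0.10 (SE), with a 95% interval of -0.09 to 0.33, and it did not pass (edgeR quasi-likelihood test, Benjamini-Hochberg adjusted p = 0.275). In the same comparison 52 of the 76 genes passed (68.4%). An exact 2-sided permutation test of log2 FPKM, with the lines exchanged within each temperature, gave p = 0.305 over 400 arrangements, of which the smallest possible p is 0.005. The line difference of arf1 was thus within the spread of the libraries, and the interval leaves room for a difference of up to 0.33 in favour of Mo17. Its sign depended on the scaling, at -0.17 with TMM factors and -0.014 with median-ratio factors, where the median of all tested genes moved from 0.06 to -0.23 and -0.07. It passed at 0.20 ± 0.07 (SE) when replicate 1 of Mo17 at 25 °C was left out (edgeR, adjusted p = 0.0338), and was 0.056 without replicate 3 of that group and 0.087 without replicate 1 of B73 at 10 °C, where it did not pass (edgeR, adjusted p = 0.607 and 0.445).

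The tests at single temperatures share libraries with the changes that chose the gene. At 25 °C arf1 was 1.22-fold as high in Mo17 as in B73, a log2 difference of 0.29 ± 0.13 (SE) with a 95% interval of -0.01 to 0.58, and the libraries of both lines overlapped, where those of 53 of 76 genes (69.7%) did not. It did not pass (edgeR, adjusted p = 0.0862), where 47 of 76 genes did (61.8%). Without replicate 1 of Mo17 at 25 °C, the lowest library of its group, the difference was 0.43 ± 0.11 (SE; edgeR, adjusted p = 0.00481), and without replicate 3, the highest, it was 0.15 ± 0.13 (SE; edgeR, adjusted p = 0.355). Other scalings made it smaller, at 0.15 with median-ratio factors, 0.032 with TMM factors and 0.019 with quantile normalization, none of which passed (adjusted p = 0.372, 0.882 and 0.930; edgeR, and limma for the last). At 10 °C the mean of Mo17 was 0.971 times that of B73, and the libraries overlapped, where those of 46 of 76 genes (60.5%) did not. The log2 difference was -0.04 ± 0.13 (SE) with a 95% interval of -0.34 to 0.25 (edgeR, adjusted p = 0.803), where 49 of 76 genes passed (64.5%). Without replicate 1 of B73 at 10 °C it was -0.11 ± 0.14 (SE; edgeR, adjusted p = 0.552). With TMM factors it reached -0.37 ± 0.15 (SE; edgeR, adjusted p = 0.0495), a setting that moved the median gene from 0.06 to -0.26.

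The decrease at 10 °C was numerically larger in Mo17, and the interaction of line and temperature addressed whether the lines differed in it. The difference between both cold changes is built from the values that chose the gene, so its test is not wholly independent of that choice. It was -0.33 ± 0.19 (SE) on the log2 scale, with a 95% interval of -0.75 to 0.09, and did not pass (edgeR, adjusted p = 0.720). No gene of the 76 passed in this comparison (0%), with 6 genes at an unadjusted p under 0.05 in edgeR and 5 each in limma and DESeq2, which also called 0. Under quantile normalization the changes were -0.53 in B73 and -0.47 in Mo17, and the interaction turned to 0.065. It was -0.20 without replicate 3 of Mo17 at 25 °C and -0.40 without replicate 1 of B73 at 10 °C, and passed in neither case (edgeR, adjusted p = 0.953 and 0.490). A larger decrease of arf1 in the line labelled as sensitive was therefore not shown, and a difference of up to 0.75 in that direction is within the interval.

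**Figure D3:**
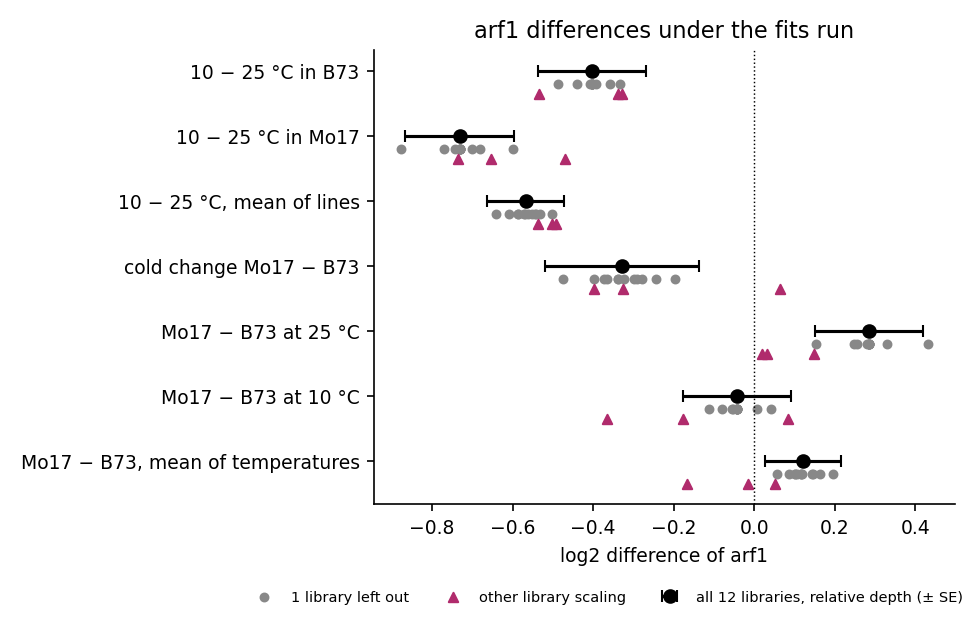
Log2 differences of arf1 (horizontal axis) for 7 comparisons. Black points with bars give the estimate ± SE from all 12 libraries, grey points the estimates with 1 library left out, and triangles those with TMM, median-ratio or quantile scaling. All estimates of the change from 25 °C to 10 °C are below 0, and the differences between the lines lie on both sides of 0 at 10 °C and over both temperatures.

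The other genes with a Golgi, vesicle, GTPase or endocytosis term were mostly not called between the temperatures. Besides arf1 the list held 10 genes of the table, of which 9 were tested and 8 of these 9 matched through the Golgi term alone. In B73 none of the 9 passed in edgeR, where 1 of all 76 genes did (1.32%), and in Mo17 none of the 9 passed, where 2 of 76 did (2.63%). In each line 1 of the 9 had an unadjusted p under 0.05 in edgeR, limma called 0 and DESeq2 called 1. Averaged over the lines, adh1 passed, at a log2 change of -0.75 ± 0.15 (SE; edgeR, adjusted p = 0.00968), where 8 of 76 genes passed (10.5%). The genes counted over all 76 in Mo17 and on average include arf1, which was chosen for its decrease, and are no test of it. The averaged changes of the 9 genes had a median of -0.13, against -0.02 over all tested genes. adh1 encodes an alcohol dehydrogenase of fermentation and is annotated to the Golgi apparatus among many other terms.

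The closest in function was ap17, which encodes the sigma subunit of AP-2, an adaptor complex that links cargo to clathrin in endocytosis. Its libraries ran from 1.80 to 3.78 FPKM in B73 at 25 °C and from 1.83 to 2.42 FPKM in B73 at 10 °C. In Mo17 they ran from 2.09 to 2.68 FPKM at 25 °C and from 1.79 to 2.31 FPKM at 10 °C. The groups overlapped in both lines. The log2 change of ap17 was -0.24 ± 0.27 in B73 and -0.16 ± 0.27 in Mo17 (± SE), and neither passed (edgeR, adjusted p = 0.812 and 0.835). In each library arf1, at 46.3 FPKM or more, stood far above ap17 on this scale.

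Other members of the list act in the membranes through which vesicles pass. AI665898, annotated as a reticulon, a protein that shapes the tubules of the endoplasmic reticulum, had mean levels of 165 ± 19.2 FPKM at 25 °C and 183 ± 21.6 FPKM at 10 °C in B73. In Mo17 it had 161 ± 12.1 FPKM at 25 °C and 145 ± 6.19 FPKM at 10 °C (mean ± SD, n = 3 each). Its changes were 0.15 ± 0.11 and -0.16 ± 0.11 on the log2 scale (± SE) and did not pass. a4Lea, a fucosyltransferase of protein glycosylation in the Golgi, had log2 changes of -0.05 ± 0.12 in B73 and -0.20 ± 0.12 in Mo17 (± SE), and neither passed. AI901738, annotated to glucuronoxylan synthesis in the Golgi membrane, had log2 changes of -0.18 ± 0.35 and -0.07 ± 0.35 (± SE), and apt1, a gene named for aberrant pollen transmission, of 0.10 ± 0.23 and 0.35 ± 0.23 (± SE), with no call for either. Of the enzymes that matched through the Golgi term, apx2, an ascorbate peroxidase, had log2 changes of -0.08 ± 0.09 and -0.02 ± 0.09, and adh2, the other alcohol dehydrogenase, of -1.41 ± 0.69 and 0.07 ± 0.60 (B73 and Mo17, ± SE), none of which passed.

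Between the lines, averaged over temperature, 5 of the 9 genes passed, adh1, adh2 and apt1 higher in Mo17 and AI665898 and AI901738 lower, a share of 55.6% beside 68.4% of all tested genes. apt1 stood at 1.55 ± 0.21 and 1.66 ± 0.27 FPKM in B73 and at 3.28 ± 0.93 and 4.20 ± 0.47 FPKM in Mo17 (25 °C and 10 °C, mean ± SD, n = 3 each). Its log2 difference was 1.21 ± 0.16 (SE; edgeR, adjusted p = 4.09e-05), and it kept its sign under all 4 scalings, down to 0.22. ap17, like arf1, did not pass, at -0.11 ± 0.19 (SE; edgeR, adjusted p = 0.619).

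The 6 genes whose pattern was most like that of arf1 did not carry its terms for GTP binding, small GTPase signalling or endocytosis. Of them, adh1 shared the Golgi term. Likeness was the Pearson r, over the 12 libraries, of log2(normalized count + 1) after the mean of each line was subtracted, and it is a description, since all genes share the libraries and their depth. Its median over the other 75 tested genes was 0.11. The highest value was that of a2_1, annotated to the transfer of glycosyl groups and otherwise unknown, at r = 0.93 and Spearman rho = 0.90. Next came aprl6, a gene of the family named for adenosine phosphosulfate reductase that is annotated to protein folding in the endoplasmic reticulum, at 0.88 and 0.87. Its level was low, at 0.93 to 2.09 FPKM in B73 and 2.17 to 4.34 FPKM in Mo17. ald1, the cytoplasmic fructose-bisphosphate aldolase of glycolysis, had 0.86 and 0.80. AI812156, described as a part of Elongator, a complex of transcription elongation, had 0.83 and 0.76, AN110, an AN1-type zinc finger protein, 0.83 and 0.73, and adh1 0.82 and 0.90 (r and rho).

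The 6 genes were picked for a high r over these libraries, so the values in parts of them are no further support. Within each line of 6 libraries r ran from 0.69 to 0.89 in B73 and from 0.83 to 0.99 in Mo17. Without the 2 libraries in which arf1 was farthest from its median, r ran from 0.74 to 0.87. By log2 level after the mean of each line was subtracted, these were replicate 3 of Mo17 at 25 °C and replicate 1 of Mo17 at 10 °C. Each of the 6 genes had lower estimates at 10 °C in both lines, except that adh1 reached 0 in Mo17 under quantile normalization, and arf1 was itself chosen for such a change. When the mean of each group was subtracted instead, which removes the effect of temperature, a2_1 again had the highest r at 0.85, AN110 had 0.74 and ald1 0.74, while AI812156 had 0.19. Under this centring 3 of the 6 genes were again among the 6 most alike. Without replicate 1 of B73 at 10 °C the number was also 3, and a2_1 again came first at 0.95.

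**Figure D4:**
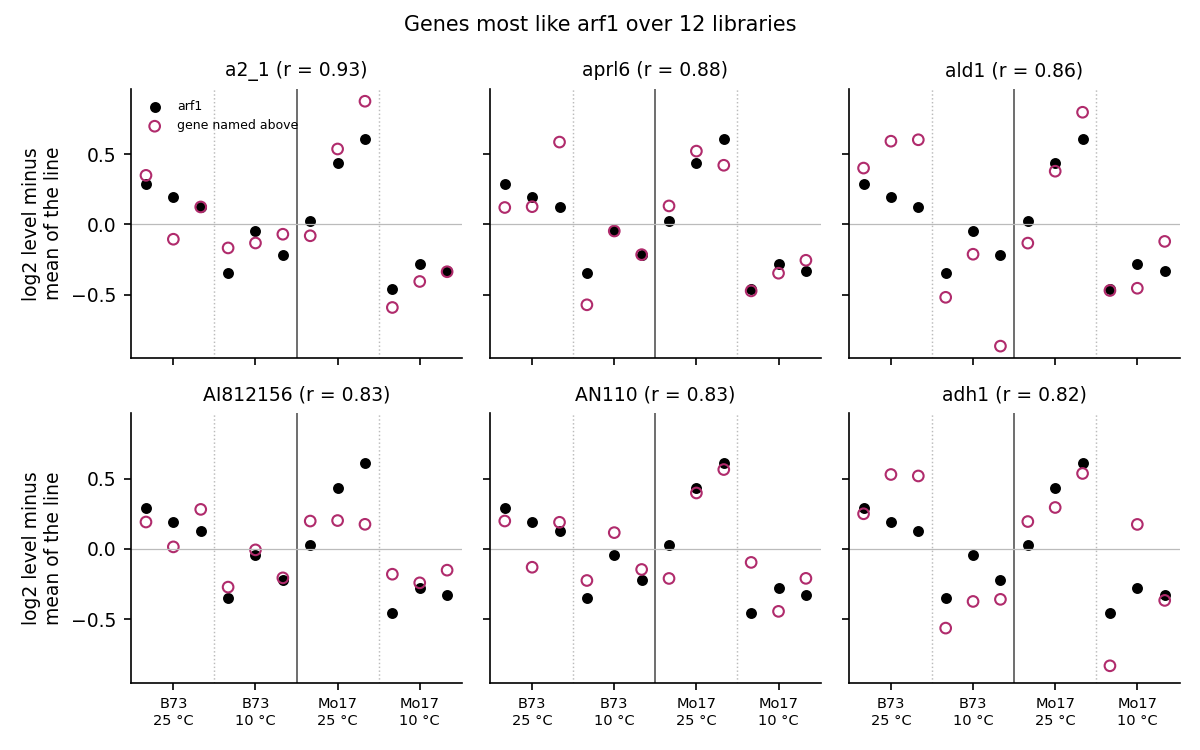
Log2 level minus the mean of the line (vertical axis) in the 12 libraries, ordered by group along the horizontal axis, for arf1 (filled black) and for each of the 6 genes most like it (open circles, 1 panel each, with Pearson r). In Mo17 at 25 °C, replicate 1 is the lowest library of its group for arf1 and for each of the other genes except AI812156.

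The replicates of Mo17 at 25 °C show this for a2_1. Where arf1 stood at 64.9, 86.0 and 97.1 FPKM, a2_1 stood at 54.9, 84.2 and 107 FPKM in the same 3 libraries, so both genes were lowest in replicate 1 and highest in replicate 3. In Mo17 at 10 °C a2_1 stood at 38.5, 43.8 and 46.0 FPKM, in B73 at 25 °C at 59.5, 43.4 and 50.9 FPKM and in B73 at 10 °C at 41.6, 42.6 and 44.5 FPKM. In B73 the libraries of a2_1 at both temperatures overlapped, unlike those of arf1, because replicate 2 at 25 °C lay below replicate 3 at 10 °C. Its log2 change was -0.26 ± 0.20 in B73 and -0.94 ± 0.20 in Mo17 (± SE).

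The genes least like arf1 were ACR4, whose annotation concerns the control of amino acid metabolism, at r = -0.81, AI987507, an INDETERMINATE-related protein, at -0.75, and aprl5, at -0.72. Each had higher estimates at 10 °C in both lines. Their choice by a negative r to a gene chosen for its decrease favoured this direction. The log2 change of AI987507 was 0.14 ± 0.30 in B73 and 0.74 ± 0.30 in Mo17 (± SE). That of aprl5 was 0.12 ± 0.09 in B73 and 0.09 ± 0.09 in Mo17 (± SE). AI987507 had low levels, at 0.36 to 1.22 FPKM over all libraries. For ACR4 the log2 change was 0.35 ± 0.12 in B73 and 0.42 ± 0.12 in Mo17 (± SE).

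arf1 shares letters with the auxin response factors, transcription factors that bind auxin response elements and are not related to it. The table holds 2 of them, ARF11 and ARF16, and both were tested. Their log2 changes at 10 °C were 0.47 ± 0.52 and 0.09 ± 0.08 in B73 and 0.11 ± 0.52 and 0.06 ± 0.08 in Mo17 (± SE), and none passed in edgeR. ARF16 stood at 244 to 295 FPKM over all libraries, above arf1 in each, and ARF11 at 1.18 to 6.30 FPKM, below it.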

How the data were processed

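Polyadenylated RNA of 12 embryo libraries was sequenced in pairs from strand-marked libraries, per the labels' protocols. Listed in the submitters' processing notes, without their roles, are the tools HISAT2 2.0.4, StringTie 1.3.4d, cutadapt 1.9, DESeq2 and edgeR, and as genome build B73 RefGen_v4. The deposited table gives a count and an FPKM made by the authors for each gene and library, per the file headers. None of the deposited counts is 1 or 2, so a fragment may be worth several counts, and no counting intervals are given. The table used here covers 99 genes. The ratio of count to FPKM over 48 genes with at least 5 FPKM in all libraries gave the relative depth, and these genes deviated from it by at most 0.373%.

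edgeR 4.0.16 in R 4.3.3 tested counts with library sizes proportional to relative depth, without TMM factors, in 1 model of 4 group means. p-values were 2-sided and adjusted by Benjamini-Hochberg over 76 genes (threshold 0.05). Standard errors come from the unshrunken log2 change and its F statistic. The edgeR p-values set a difference of group means against the spread between libraries of a group. That spread was pooled over the 4 groups and drawn towards that of the other tested genes. The standard errors of arf1 thus do not follow its uneven spread between groups. With only the libraries compared, the SE of its cold change was 0.12 in B73 and 0.15 in Mo17. limma 3.58.1 and DESeq2 1.42.0 were alternatives, with other scalings, filters, a replicate block and each library left out. The edgeR procedure was run on simulated counts for the averaged line difference alone. Few genes were changed there, each by more than the difference estimated for arf1. The simulation therefore does not cover the other comparisons or a share of changed genes as high as here. Named were arf1, its list of terms, the 6 genes most and 3 least like it, and the auxin response factors. The result of 1 gene of the list is not reported here. The gene, lists and tests were chosen with earlier results of these data known. No sequence is printed.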

Additional observations from a re-analysis of the deposited data

How the results depend on the processing

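The cold change of arf1 stayed below 0 under all alternatives run, from -0.53 to -0.33 in B73 (23 alternatives), from -0.88 to -0.47 in Mo17 (23) and from -0.64 to -0.49 on average (22). The value in Mo17 moved by more than 1 SD under quantile normalization, to -0.47, and with 1 library left out it ran from -0.88 to -0.60. The line difference of arf1 at 25 °C ran from 0.15 to 0.43 with 1 library left out, and was 0.15, 0.032 and 0.019 with median-ratio, TMM and quantile scaling. The line difference of arf1 at 10 °C became 0.084 under quantile normalization and -0.37 with TMM factors, and ran from -0.11 to 0.042 with 1 library left out, where leaving out B73 10 °C replicate 2 gave 0.042 and Mo17 10 °C replicate 1 gave 0.0066. The line difference of arf1 averaged over temperatures became -0.17 with TMM factors and -0.014 with median-ratio size factors, and ran from 0.056 to 0.20 with 1 library left out. The interaction became 0.065 under quantile normalization and ran from -0.48 to -0.20 with 1 library left out. Causes were not tested beyond the shift of the median gene given with the results. Genes called between the lines numbered 37 to 53 at 25 °C and 35 to 54 at 10 °C over the alternatives. The 28 higher and 19 lower at 25 °C became 26 and 27 with TMM factors, and the 28 and 21 at 10 °C became 22 and 32.

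Whether replicate numbers pair these libraries was not settled. Deviations of same-numbered libraries from their group means correlated at -0.43 to 0.44, over 0.1 in 4 of 18 pairs. Libraries of unlike number were not compared in this way. With the replicate number as a block the cold change of arf1 was -0.41 in B73 and -0.72 in Mo17, the averaged line difference 0.11 (edgeR, adjusted p = 0.287), and no call of arf1 changed. Of the 6 genes most like arf1, 3 were again among the 6 when group means were subtracted, and 3 without B73 10 °C replicate 1, an alternative chosen after seeing the data, as were the counts of separated genes without that library. Absolute depth is unknown, and groups of 3 libraries were too small for a check of single outlying libraries. The 95% interval of the averaged line difference of arf1, -0.09 to 0.33, includes 0. It holds for the main scaling alone, and the estimate of -0.17 with TMM factors lies below it.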
